A study of Homo sapiens with 6 samples.

Results

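ID1, ID2, ID3, HES1, HEY1, SMAD6, SMAD7, SKIL, TGIF1 and BAMBI are widely used readouts of BMP, TGF-beta and Notch signalling, and several of them also act as brakes on it. The genes were chosen by name, with earlier results of these data known. All 10 were present among the 15651 genes measured and passed the filter on low values that left 15246 genes for testing. MDA-MB-231 cells, an established mesenchymal-like triple-negative breast cancer (TNBC) line, were grown in DMEM with serum and received either the vehicle DMSO (3 libraries) or the PDE7 inhibitor BRL-50481 (3 libraries). The treatment protocol and the study's methods give 50 μM for 72 h, whereas the treatment tag of the BRL-50481 samples gives 5 μM and 48 h, so the dose and time behind the differences below are not settled. The labels name no genetic change in either group, and the design text calls the 3 samples of each group biological replicates without saying how they were separated. The comparison asks how the mRNA levels of these genes differ between inhibitor- and vehicle-treated cells.

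BMP and TGF-beta ligands bind paired receptor kinases at the cell surface, which phosphorylate receptor SMADs. These enter the nucleus with SMAD4, and the products they induce include ID proteins, which hold basic helix-loop-helix factors off DNA, and feedback inhibitors such as SMAD6, SMAD7, SKIL and BAMBI. Notch ligands on a neighbouring cell release the receptor's intracellular domain, which joins RBPJ on DNA and switches on repressors of the HES and HEY families. PDE7 enzymes degrade cyclic AMP, a messenger that acts in part through CREB at the cyclic AMP response element (CRE).

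The libraries held 30750573 to 33446984 reads on genes, and each value below is a read count divided by the size factor of its library (a normalized count), in which 1 read is worth between 0.969 and 1.02. DMSO replicate 1 stood apart from the other DMSO libraries, with a residual SD of 0.142 on the log2 scale against 0.0964 to 0.119 in the other DMSO libraries and 0.0791 to 0.0832 in the BRL-50481 libraries. For some of the values that it moves, the value without it is also given. The mesenchymal markers VIM, CD44, CAV1 and AXL were abundant in both groups and were called higher with BRL-50481 (log2 fold changes of 0.58, 0.47, 0.49 and 0.12). ESR1 was not among the genes listed. PGR, at 0 to 2.98 normalized counts with DMSO and 2.01 to 7.75 with BRL-50481, did not pass the filter. However, ERBB2 (1677 ± 75.5 normalized counts in DMSO, SD, n = 3) and EPCAM (764 ± 7.73) were not near 0. Of the epithelial markers, CDH1 was called higher with BRL-50481 (38.2 ± 9.13 with DMSO and 99.8 ± 6.07 with BRL-50481) and EPCAM lower (682 ± 11 with BRL-50481), while of the 3 markers of other cell types 1 was listed, the endothelial PECAM1, at 325 to 396 with DMSO and 460.4 to 537 with BRL-50481. The part of these marker differences in the results below was not tested. PDE7A mRNA, which encodes a target of the compound, was 406 ± 2.06 with DMSO and 298 ± 40.6 with BRL-50481 (log2 fold change −0.45, SE 0.103, adjusted p = 0.00199), and since the compound acts on the protein this does not check the treatment labels.

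Promoter sequence is shown for HES1, SKIL and BAMBI, which carry the Notch, cyclic AMP and BMP motifs that were searched among the genes with the clearest differences. The sequences are the 250 bases before the RefSeq start site on GRCh38.p14, written 5′ to 3′ on the plus strand, the strand of all 3 genes, and the capitals mark every match to the RBPJ core (TGGGAA), the CRE core (TGACG), the full CRE (TGACGTCA), the SMAD palindrome (GTCTAGAC) and a GC element bound by BMP-activated SMADs (GGCGCC), each searched on both strands.
HES1, chr3:194135898-194136147: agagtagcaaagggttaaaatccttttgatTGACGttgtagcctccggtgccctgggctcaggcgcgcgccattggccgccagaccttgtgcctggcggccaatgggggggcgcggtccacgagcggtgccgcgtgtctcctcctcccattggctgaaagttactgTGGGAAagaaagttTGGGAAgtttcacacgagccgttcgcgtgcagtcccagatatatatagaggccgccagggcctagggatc
SKIL, chr3:170357465-170357714: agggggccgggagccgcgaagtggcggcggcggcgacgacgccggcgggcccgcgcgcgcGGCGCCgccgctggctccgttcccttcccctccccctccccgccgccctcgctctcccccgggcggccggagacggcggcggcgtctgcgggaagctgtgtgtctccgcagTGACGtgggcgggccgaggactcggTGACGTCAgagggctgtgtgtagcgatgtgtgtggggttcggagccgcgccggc
BAMBI, chr10:28677271-28677520: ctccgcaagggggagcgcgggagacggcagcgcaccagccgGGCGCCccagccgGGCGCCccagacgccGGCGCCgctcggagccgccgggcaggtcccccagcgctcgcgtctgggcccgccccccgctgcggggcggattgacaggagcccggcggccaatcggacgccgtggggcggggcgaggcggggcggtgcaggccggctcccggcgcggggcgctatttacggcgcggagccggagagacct

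The HES1 promoter held 2 RBPJ cores, which began 84 and 70 bases before the start site, and 1 CRE core that began 220 bases before it. At least 2 RBPJ cores were found in 3.80% of the 35116 RefSeq promoter windows of the same 300 bases. The SKIL promoter held a full CRE 54 bases before the start site, which on its own contains a core on each strand, a further core 79 bases before the start site, and 1 GC element. A full CRE was found in 1.85% of all windows and a CRE core in 24.6%. The BAMBI promoter held 3 GC elements between 209 and 181 bases before the start site, and at least 2 were found in 4.35% of all windows. ID3 had 1 CRE core (150 bases before its start site) and SMAD6 the SMAD palindrome (12 bases before its start site, in 0.202% of all windows). The windows searched for ID1, ID2, SMAD7 and TGIF1 held none of these letters. For each gene only the window nearest the start of the GENCODE canonical transcript was searched. SMAD7 has 3 windows and TGIF1 has 7, so their other windows were not searched. Of the 10 genes 9 were matched to a window, HEY1 being the exception. Of the 9 windows of the genes studied, 1 held an RBPJ core, that of HES1, where 24% of all windows did. Of the 9 windows of other HES, HEY and Notch-induced genes, 4 held a core (HES4, HES5, HEY2 and HEYL). The windows of HES2, HES6, HES7, NRARP and NOTCH3 held none. These matches describe letters in a short window and say nothing of binding in these cells.

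In BRL-50481-treated cells, 6 of the 10 genes were called lower at an adjusted p under 0.05 (ID3, HES1, HEY1, SKIL, TGIF1 and BAMBI) and 0 were called higher, where 29.8% of all genes tested were lower and 28.9% higher. The test was limma on log2(normalized count + 1), with p-values adjusted over the 15246 genes by the Benjamini-Hochberg method. At an unadjusted p under 0.05 the count of higher genes was also 0, as it was with edgeR and DESeq2 on the reads recovered from the values. The median log2 fold change of the 10 genes was −0.35, against 0.01 over all genes tested. In 7 of the 10 genes all BRL-50481 values were under all DMSO values (32.3% of all genes), in SMAD6 all were over them (31.9% of all genes), and in ID1 and SMAD7 the groups overlapped. With 3 libraries against 3, an exact two-sided permutation test of a single gene cannot give a p below 0.1. In such bulk libraries, fewer cells of a type and less RNA per cell cannot be told apart.

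**Figure D1:**
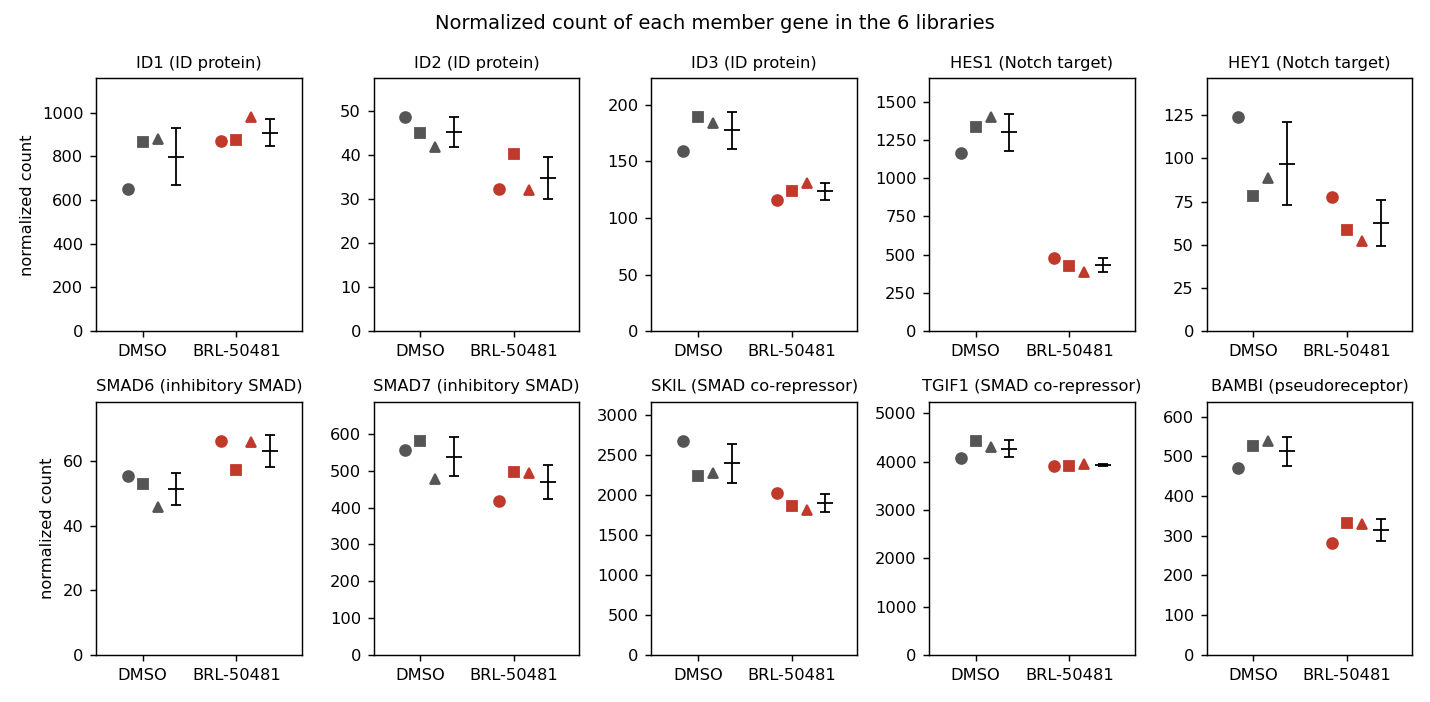
Normalized count (vertical axis, linear from 0, on its own scale in each panel) of each of the 10 genes in the 3 DMSO libraries (grey) and the 3 BRL-50481 libraries (red), with circles, squares and triangles for replicates 1, 2 and 3 and a bar for the mean ± SD. The red points of HES1, between 385 and 477, sit far below the grey ones, between 1166 and 1399, whereas those of ID1 overlap and those of SMAD6 lie above the grey ones.

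HES1, a repressor that Notch induces in many tissues (chromosome 3, 194136148 to 194138732 on the plus strand of hg38, 4 exons), had the largest difference of the 10. Its normalized counts were 1166, 1333 and 1399 with DMSO and 477, 429 and 385 with BRL-50481. Every DMSO library was far above every BRL-50481 library. The means were 1299.5 ± 120.4 and 430.4 ± 46.2 (SD, n = 3 each), with a ratio of 0.331 and a log2 fold change of −1.59 (SE 0.0923, 95% interval −1.79 to −1.39, adjusted p = 2.28e-08). Of the 15246 genes tested, 150 had a lower log2 fold change, and HES1 was the 1 gene of the 10 below −1, where 3.39% of all genes tested lay. Over 17 alternative ways of processing, its log2 fold change stayed between −1.67 and −1.52 and it was called lower in each.

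HEY1, the other Notch-induced repressor (chromosome 8, 79762371 to 79767857, minus strand, 5 exons), had a lower level per kilobase of transcript and varied more between libraries. It was measured at 124, 78.4 and 88.9 normalized counts with DMSO and at 77.5, 58.4 and 52.3 with BRL-50481. The groups were separated by less than 1 normalized count, with the lowest DMSO and the highest BRL-50481 library side by side. The means of 97.1 ± 23.9 and 62.8 ± 13.1 (SD, n = 3 each) gave a log2 fold change of −0.61 (SE 0.205, 95% interval −1.06 to −0.17, adjusted p = 0.0198). This call depended on single libraries and on the variance model, with an adjusted p of 0.0741 and a log2 fold change of −0.43 without DMSO replicate 1, 0.0675 without BRL-50481 replicate 2, 0.0822 without BRL-50481 replicate 3 and 0.0637 without the mean-variance trend.

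The ID genes encode helix-loop-helix proteins with no DNA-binding region, which block differentiation factors, and they are classic immediate targets of BMP signalling. ID3 (chromosome 1, 23557926 to 23559501, minus strand, 3 exons) was measured at 159, 189 and 184 normalized counts with DMSO and at 116, 124 and 131 with BRL-50481. The highest BRL-50481 library lay below the lowest DMSO library. The means were 177 ± 16.2 and 124 ± 7.55 (SD, n = 3 each), which is a log2 fold change of −0.52 (SE 0.124, 95% interval −0.78 to −0.25, adjusted p = 0.00295). ID3 was called lower under all 17 alternatives, and without DMSO replicate 1 its log2 fold change was −0.59.

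ID1 (chromosome 20, 31605283 to 31606515, plus strand, 2 exons) had the highest level per kilobase of the ID genes, with 649, 866 and 881 normalized counts with DMSO and 869.8, 875 and 979.9 with BRL-50481. DMSO replicate 1 was low, and the other 5 libraries lay between 866 and 979.9, with 1 DMSO library above 2 of the BRL-50481 libraries. The log2 fold change was 0.20 (SE 0.105, 95% interval −0.03 to 0.42, adjusted p = 0.126), and it was 0.05 without DMSO replicate 1. With a correction of each library for transcript length and GC content, ID1 was called higher (0.27, adjusted p = 0.00335). ID2 (chromosome 2, 8678845 to 8684461, plus strand, 3 exons), whose exons overlap the antisense gene ID2-AS1, had the lowest at 48.6, 45.1 and 41.9 normalized counts with DMSO and 32.2, 40.3 and 32.0 with BRL-50481. Each BRL-50481 value lay below each DMSO value, but at these low counts the log2 fold change of −0.37 (SE 0.207, 95% interval −0.82 to 0.08) did not pass the test (adjusted p = 0.140). It passed with quantile normalization (−0.58, adjusted p = 0.0272) and without the mean-variance trend (adjusted p = 0.0369).

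Of the ID genes, ID3 was called lower and ID1 and ID2 were not called. The ratio of ID1 to ID3, which does not depend on the scaling of a library, was 4.09, 4.58 and 4.79 in the DMSO libraries and 7.51, 7.07 and 7.49 in the BRL-50481 libraries. The log2 ratio was higher by 0.72 (SE 0.0739) in BRL-50481, with no overlap between the groups. For ID1 to ID2 the ratio was 13.4, 19.2 and 21.0 with DMSO and 27.0, 21.7 and 30.6 with BRL-50481, a change of 0.58 (SE 0.247) in log2 ratio that was 0.38 without DMSO replicate 1. Ratios of 5 pairs were computed, pairs that were chosen after the values had been seen, and each of the 4 without overlap had the smallest exact permutation p that 3 against 3 allows (0.1, two-sided, and 0.125 after adjustment over the 5 pairs).

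SMAD6 and SMAD7 encode inhibitory SMADs, which occupy receptors or SMAD4 in place of the signalling SMADs. SMAD6 (chromosome 15, 66702236 to 66782849, plus strand, 4 exons) was measured at 55.6, 52.9 and 46.0 normalized counts with DMSO and at 66.4, 57.4 and 65.9 with BRL-50481. It was the 1 gene of the 10 in which every BRL-50481 library was above every DMSO library, though BRL-50481 replicate 2 exceeded DMSO replicate 1 by less than 2 normalized counts. Its log2 fold change of 0.29 (SE 0.176, 95% interval −0.09 to 0.67) did not pass the test (adjusted p = 0.171), nor did it under any of the 17 alternatives.

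SMAD7 (chromosome 18, 48919853 to 48950965, minus strand, 4 exons) had a higher level per kilobase than SMAD6, with normalized counts of 557, 582 and 478 with DMSO and 417, 496 and 495 with BRL-50481. DMSO replicate 3 lay below 2 of the BRL-50481 libraries. The log2 fold change was −0.20 (SE 0.0983, 95% interval −0.41 to 0.01, adjusted p = 0.0989). SMAD7 was called lower without DMSO replicate 3 (−0.28, adjusted p = 0.0352) and with the correction for length and GC content (−0.21, adjusted p = 0.0349). The ratio of SMAD6 to SMAD7 within a library was 0.0998, 0.0909 and 0.0962 with DMSO and 0.159, 0.116 and 0.133 with BRL-50481, a change of 0.50 (SE 0.139) in log2 ratio with no overlap.

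SKIL and TGIF1 encode nuclear co-repressors of SMAD complexes, and SKIL (SnoN) is both degraded and re-induced by TGF-beta. SKIL (chromosome 3, 170357342 to 170396835, plus strand, 7 exons) was measured at 2683, 2235 and 2284 normalized counts with DMSO and at 2028, 1870.5 and 1817 with BRL-50481. DMSO replicate 1 was the highest library, and the groups did not overlap with or without it. The means of 2401 ± 246 and 1905 ± 109 (SD, n = 3 each) gave a log2 fold change of −0.33 (SE 0.0730, 95% interval −0.49 to −0.17, adjusted p = 0.00167). SKIL was called lower under all 17 alternatives, with a log2 fold change of −0.25 without DMSO replicate 1 and −0.51 after the correction for length and GC content.

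TGIF1 (chromosome 18, 3411608 to 3459978, plus strand, 3 exons) had the highest level per kilobase of the 10 genes, with 4084, 4433 and 4296 normalized counts with DMSO and 3913, 3913 and 3949.8 with BRL-50481. The BRL-50481 libraries were close to each other and all below the DMSO libraries. The difference was the smallest of those called, a log2 fold change of −0.12 (SE 0.0493, 95% interval −0.23 to −0.01, adjusted p = 0.0495), and the call was kept under 6 of 17 alternatives, among which the adjusted p ran from 0.00142 to 0.205. Quantile normalization took the log2 fold change to −0.08 and leaving out DMSO replicate 1 to −0.15. The ratio of SKIL to TGIF1 overlapped between the groups (exact permutation p = 0.2, two-sided).

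BAMBI, a receptor-like protein without a kinase that sits among TGF-beta and BMP receptors and blocks them (chromosome 10, 28677510 to 28682932, plus strand, 3 exons), had the second-largest difference. It was measured at 471, 526 and 539 normalized counts with DMSO and at 283, 331 and 331 with BRL-50481. The groups were well separated, with every DMSO library above every BRL-50481 library. The means were 512 ± 36.1 and 315 ± 27.8 (SD, n = 3 each), with a ratio of 0.615 and a log2 fold change of −0.70 (SE 0.0946, 95% interval −0.91 to −0.50, adjusted p = 3.20e-05). BAMBI was called lower under all 17 alternatives, between −0.76 and −0.63, and 1167 of the genes tested had a lower log2 fold change.

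**Figure D2:**
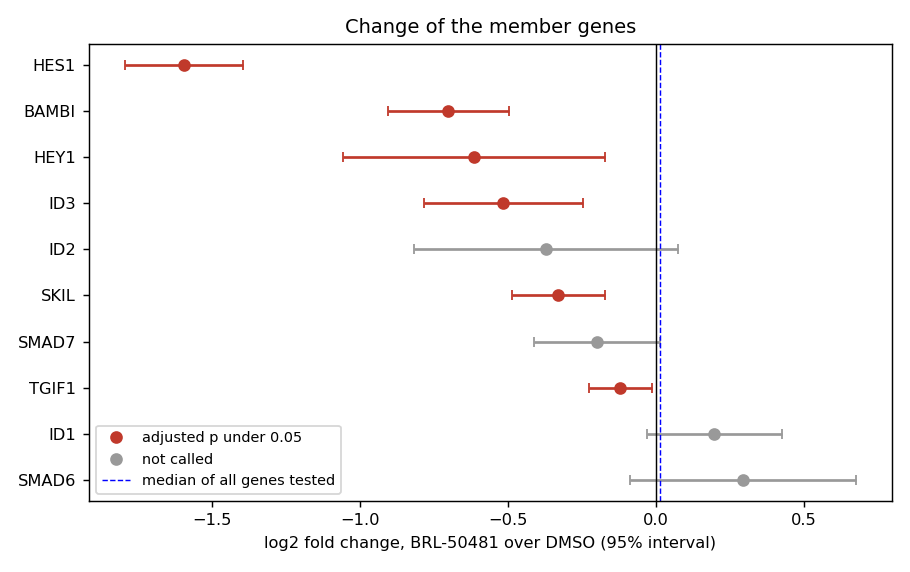
Log2 fold change of BRL-50481 over DMSO (horizontal axis) with its 95% interval for the 10 genes, ordered from the lowest (HES1, −1.59) to the highest (SMAD6, 0.29), in red where the limma adjusted p was under 0.05 and in grey where it was not. The dashed line is the median of all genes tested (0.01), and the intervals of ID1, ID2, SMAD6 and SMAD7 include 0.

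DMSO replicate 1 was the lowest DMSO library in ID1, ID3, HES1, TGIF1 and BAMBI and the highest in ID2, HEY1, SMAD6 and SKIL, so leaving it out moved genes in both directions. Of the 6 genes called with all libraries, 5 were called without it, HEY1 being the exception. In HES1 the log2 fold change became −1.67 and in BAMBI −0.76, both farther from 0 than with all libraries.

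**Figure D3:**
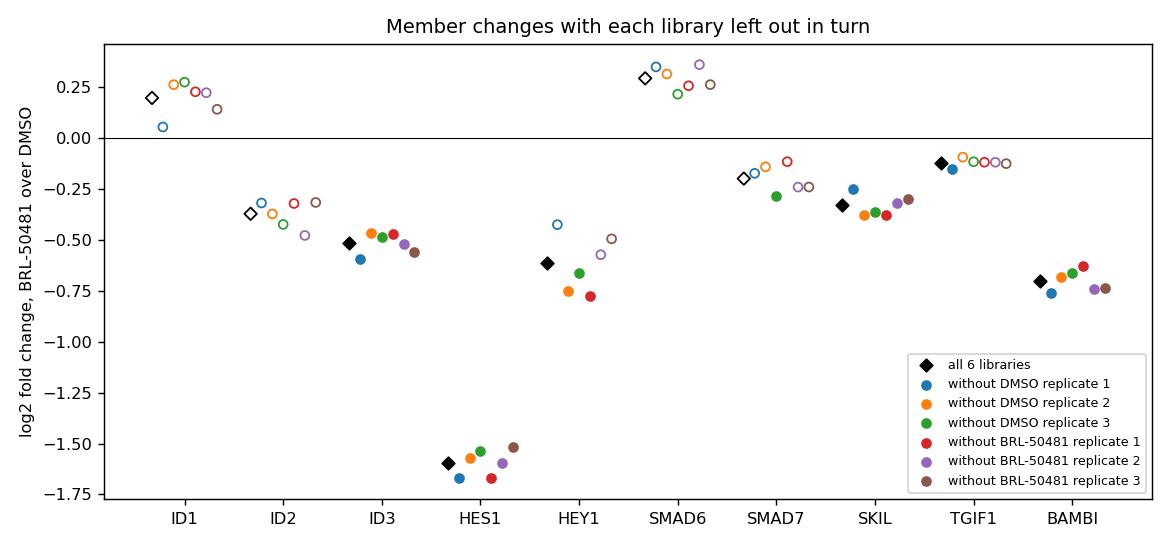
Log2 fold change of BRL-50481 over DMSO (vertical axis) of each gene with all 6 libraries (black diamond) and after the removal of 1 library at a time (coloured circles), filled where the adjusted p was under 0.05 and open where it was not. HES1, BAMBI, ID3 and SKIL are filled throughout, HEY1 and TGIF1 have open circles, and ID1 drops to 0.05 without DMSO replicate 1.

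To compare levels between genes, normalized counts were divided by the length of the GENCODE canonical transcript in kilobases. In DMSO the levels per kilobase were highest for TGIF1 (1345 ± 55.3, SD, n = 3), followed by HES1 (825 ± 76.4) and ID1 (812 ± 132), which did not differ beyond their spread. SKIL (336 ± 34.3) and BAMBI (303 ± 21.3) came next and overlapped within their spread, as did ID3 (187 ± 17.1) and SMAD7 (161 ± 16.2). HEY1 (44.2 ± 10.9) and ID2 (34.8 ± 2.60) were low and close to each other, and SMAD6 was lowest (13.4 ± 1.29). In BRL-50481 the level per kilobase of HES1 (273 ± 29.3) was no longer near that of ID1 (924 ± 63.1) but within the spread of SKIL (266 ± 15.3). ID3 (130 ± 7.95) and SMAD7 (140 ± 13.6) were again within their spread of each other, and TGIF1 (1236 ± 6.67) and SMAD6 (16.5 ± 1.32) were again at the ends of the order. Within libraries, the ratio of HES1 to HEY1 normalized counts went from 9.40, 17.0 and 15.8 in DMSO to 6.16, 7.35 and 7.35 in BRL-50481, a change of −0.97 (SE 0.282) in log2 ratio with no overlap, and of −1.24 without DMSO replicate 1.

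**Figure D4:**
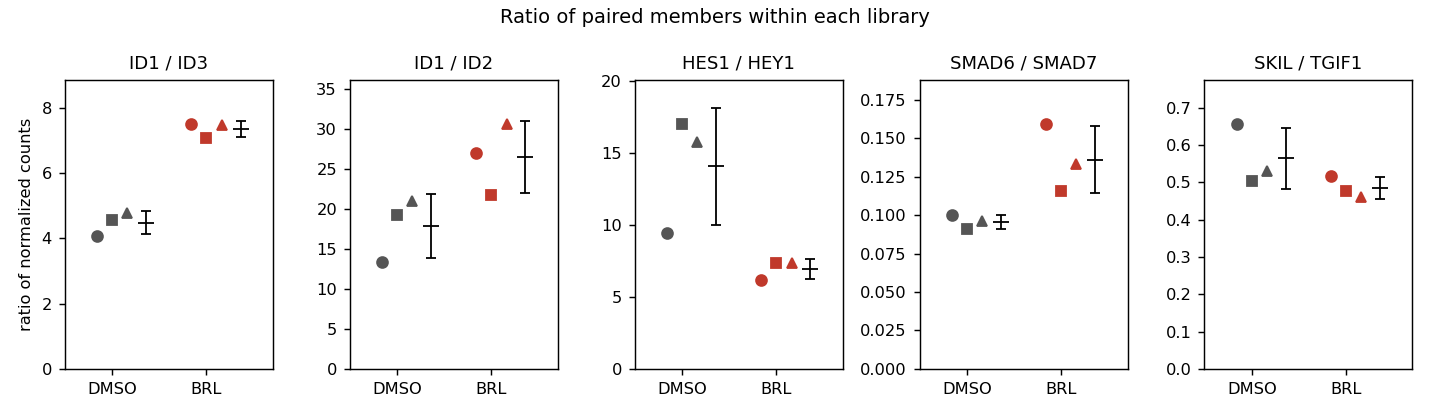
Ratio of the normalized counts of paired genes within each library (vertical axis, linear from 0) in DMSO (grey) and BRL-50481 (red), with circles, squares and triangles for replicates 1, 2 and 3 and a bar for the mean ± SD. The ID1 to ID3 ratio sits between 4.09 and 4.79 with DMSO and between 7.07 and 7.51 with BRL-50481, and the SKIL to TGIF1 ratio overlaps.

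Around these 10 genes, 100 further genes of the BMP, TGF-beta and Notch pathways were tested, of which 32 were called higher, 31 lower and 37 neither, close to the 28.9% higher and 29.8% lower over all genes tested, with a median log2 fold change of −0.02. Without DMSO replicate 1, 38 were called higher and 33 lower. With the correction for length and GC content, 32 were called higher and 42 lower. The counts over all genes moved too, from 4400 higher and 4546 lower. They were 4876 and 4933 without DMSO replicate 1, and 4197 and 5493 with the correction. The lists come from textbook knowledge of these pathways, and the members named are the 2 with the highest mean normalized count in each list and up to 4 called members with the largest differences.

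Among other HES, HEY and Notch-induced genes, the list nearest to HES1 and HEY1, 5 of 8 tested were called lower and the other 3 were not called, with a median log2 fold change of −0.48. HES7, the repressor of the segmentation clock, was measured at 407, 470.2 and 589 normalized counts with DMSO and at 177, 144 and 139 with BRL-50481 (log2 fold change −1.66, SE 0.138, adjusted p = 4.84e-07). NRARP, a Notch-induced inhibitor of the pathway, was measured at 188, 236 and 225 with DMSO and at 57.4, 73.5 and 75.6 with BRL-50481 (log2 fold change −1.64, SE 0.151, adjusted p = 1.10e-06). In both genes the groups were far apart, as in HES1. HES6, which antagonizes HES1, fell by 0.62 on the log2 scale and HES2 by 0.34, the latter with a call that was lost with DESeq2 (adjusted p = 0.0745), with median centring and when any of 5 single libraries was left out. Both remaining HEY genes were outside the naming rule and are named after their values were seen. HEY2, the fifth gene that fell, was low (19.9 ± 0.777 and 6.03 ± 5.62 normalized counts, log2 fold change −1.96, or −1.24 without BRL-50481 replicate 3), and its call was lost without the mean-variance trend (adjusted p = 0.0554). HEYL was at 0.59, which did not pass the test (adjusted p = 0.0633), and was called higher without DMSO replicate 1 (0.83, adjusted p = 0.00688) and without BRL-50481 replicate 3 (0.75, adjusted p = 0.0395). HES4 was at −0.25, which did not pass the test (adjusted p = 0.176) except without DMSO replicate 1 (−0.46, adjusted p = 0.000805). HES5 was listed at no more than 5.11 normalized counts in any library and was not tested.

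Of 9 Notch receptors and ligands, 4 were called lower and 2 higher (median −0.34), and the Jagged ligands and the NOTCH receptors held genes called in each direction. The ligand gene JAG2 fell from 878, 958 and 944 normalized counts in DMSO to 275, 306 and 319 with BRL-50481 (log2 fold change −1.63, SE 0.0826, adjusted p = 7.88e-09). DLL4, another ligand, fell from 107, 112 and 81.7 to 22.1, 24.2 and 14.5 (log2 fold change −2.27, SE 0.233, adjusted p = 3.01e-06). JAG1, the other Jagged ligand, rose from 4438, 3839.95 and 4002 to 6357, 6644 and 6616 (log2 fold change 0.68, SE 0.0571, adjusted p = 5.27e-07). The receptor NOTCH2 was also higher (0.71, SE 0.0930), whereas NOTCH1 (−0.51, SE 0.0564) and the ligand gene DLL1 (−2.05, SE 0.383, at 27.2 ± 10.5 and 5.63 ± 1.52 normalized counts), named after their values were seen, were lower. In JAG2, DLL4, NOTCH1 and DLL1, and in HES7, NRARP and HES1, every BRL-50481 value was below every DMSO value, as in 32.3% of all genes tested. In JAG1 and NOTCH2 every one was above, as in 31.9% of all genes tested. The groups overlapped in the remaining receptors and ligands.

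Of 19 Notch processing and nuclear factors, 8 were called higher and 4 lower (median 0.08). RBPJ, the DNA-binding partner of the cleaved receptor, was 9036 ± 471 normalized counts with DMSO and 12871 ± 303 with BRL-50481 (log2 fold change 0.51, SE 0.0490). The co-activators MAML2 (0.73) and MAML3 (0.81), the sheddase ADAM10 (0.47) and the gamma-secretase subunit APH1B (0.91) were higher, and NUMBL, related to the Notch antagonist NUMB, was lower (−0.75), all as log2 fold changes. MAML1, the remaining co-activator of the family and named after its values were seen, was lower (−0.32, SE 0.0505). With the correction for length and GC content, ADAM10 was at 0.23 and still called higher.

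Of 8 secreted antagonists of BMP and TGF-beta family ligands, 4 were called higher and 2 lower (median −0.16). The 2 that fell, follistatin and a related protein, bind activin. FST was measured at 6109, 6476 and 6663 normalized counts with DMSO and at 2685, 2680.3 and 2717 with BRL-50481 (log2 fold change −1.25, SE 0.0498, adjusted p = 1.50e-09). FSTL3 was measured at 3939, 4603 and 4624 with DMSO and at 1649, 1820.1 and 1774 with BRL-50481 (log2 fold change −1.33, SE 0.0681, adjusted p = 8.62e-09). The BMP antagonist NOG (log2 fold change 0.45) and the BMP modulators BMPER (0.52) and TWSG1 (0.20) were higher, the last with a call that was lost without DMSO replicate 3 (adjusted p = 0.0544) and without the mean-variance trend (0.0520). The correction for length and GC content took TWSG1 to 0.11, still called higher.

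Of 14 ligands, 5 were called higher and 4 lower (median 0.05). TGFB2 (log2 fold change 0.52) and GDF5 (0.77) were higher, the call of GDF5 being lost without DMSO replicate 3 (adjusted p = 0.0623), without BRL-50481 replicate 2 (0.0853) and without the mean-variance trend (0.0610). BMP6 (−0.86), BMP8B (−0.95) and GDF11 (−0.71) were lower, and GDF15 was at −0.06 (adjusted p = 0.521), or called lower at −0.18 without DMSO replicate 1 (adjusted p = 7.04e-05). BMP4 and BMP2 were outside the naming rule and are named after their values were seen. BMP4 was called higher (0.31, adjusted p = 0.00119) and BMP2 was not called (0.05, adjusted p = 0.659). Of 15 receptors and co-receptors, 4 were called higher and 3 lower (median −0.04). TGFBR2, which binds TGF-beta and recruits TGFBR1, was 9767 ± 480 normalized counts with DMSO and 15760 ± 384 with BRL-50481 (log2 fold change 0.69, SE 0.0482, adjusted p = 1.06e-07). BMPR2 (0.33) and the co-receptor ENG (1.03, at 19.0 ± 4.32 and 39.5 ± 5.71 normalized counts) were higher and BMPR1B (−0.45) lower. BMPR2 was at 0.084 with the correction for length and GC content (adjusted p = 0.0433). TGFBR1 was at −0.05 (adjusted p = 0.504), and was called lower with the correction for length and GC content (−0.21, adjusted p = 6.46e-05).

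Of the 6 signalling SMADs, SMAD3 alone was called, with a log2 fold change of 0.22 (SE 0.0483, adjusted p = 0.00138), and the median of the list was −0.01. It was at 0.085 with the correction for length and GC content (adjusted p = 0.0105). SMAD5, with the next highest normalized counts, was at 0.03 (adjusted p = 0.783), but was called lower with the correction for length and GC content (−0.15, adjusted p = 0.00196) and higher without DMSO replicate 1 (0.11, adjusted p = 0.0466). Of 10 intracellular SMAD regulators, 3 were called higher and 4 lower (median 0.06). TGIF2, the paralog of TGIF1, fell by 0.53 on the log2 scale, and STRAP, a partner of SMAD7, by 0.65. The ubiquitin ligases SMURF2 (0.66) and NEDD4L (0.35), which act with SMAD7 on receptors, were higher, NEDD4L at 0.17 with that correction.

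Of 10 genes known to be induced by TGF-beta, 4 were called higher and 4 lower (median 0.08). LTBP2 (log2 fold change 1.08), TGFBI (0.88) and TGM2 (0.82) were higher and KLF10 (−0.86) and CTGF (−0.39) were lower. All 4 genes of the list of ID4 and the E proteins, the partners that ID proteins bind, were called. Of these, 2 were higher and 2 lower, where 28.9% of all genes tested were higher and 29.8% lower. ID4 was measured at 125, 154 and 147 normalized counts with DMSO and at 66.4, 113 and 89.2 with BRL-50481 (log2 fold change −0.69, SE 0.182, adjusted p = 0.00548), and TCF3 was lower as well (−0.49). TCF12 (0.42, or 0.26 with the correction for length and GC content) was higher, and so was TCF4 (0.68), whose call at about 20 to 30 normalized counts was lost with edgeR (adjusted p = 0.0543) and under 9 other alternatives.

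**Figure D5:**
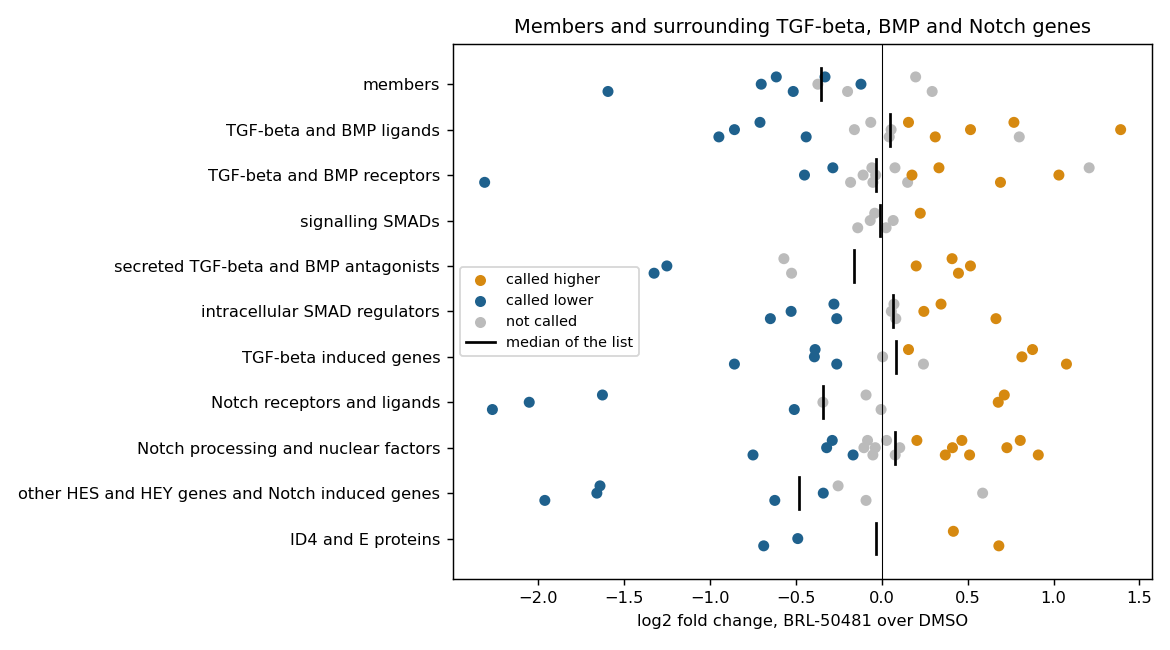
Log2 fold change of BRL-50481 over DMSO (horizontal axis) of the 10 genes in the top row and of each tested gene of the 10 pathway lists below, in orange where called higher, blue where called lower and grey where not called, with a black bar at the median of each list. The top row runs from −1.59 to 0.29, and the row of other HES, HEY and Notch-induced genes holds 5 blue points and no orange one.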

How the data were processed

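Strand-specific libraries were made from oligo-dT selected RNA per the labels, where the design text names ribosomal depletion. The authors aligned single-end reads to hg38 with STAR 2.7.1a, used htseq-count with the reverse-strand option and a UCSC annotation, and divided the counts by DESeq2 (version 1.28) size factors. The deposited signal is this normalized count of each gene and library. The authors' own comparison (a log2 fold change, its standard error, a test score and a p-value, raw and adjusted) was also deposited and was not used.

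Here genes that reached a normalized count of 4 in 3 or more libraries were tested with limma 3.58.1 (R 4.3.3), with group as the only term, on log2 of the normalized count with a pseudocount of 1. The mean-variance trend was used, Benjamini-Hochberg adjustment covered every gene tested, and the threshold was 0.05. All values (100%) could be divided into whole reads within 1e-06, and the recovered reads were tested with edgeR 4.0.16 (quasi-likelihood, TMM) and DESeq2 1.42.0. The other alternatives were a pseudocount of 0.5 or 4, the filter dropped or set to a mean of 20, median centring, quantile normalization, no trend, a replicate block, omission of single libraries, and a loess correction (span 0.5) for length and GC content of GENCODE canonical transcripts, which 96.5% of genes had. Ratios of paired genes were chosen once values were known, compared with an exact two-sided permutation test, and recomputed without single libraries. The procedures were also run on simulated counts. These had the same dispersion for every gene and far fewer changed genes than were called here, so that run does not measure the error of these calls. The genes, lists, naming rule and alternatives were chosen with earlier results of these data known. The naming rule took the 10 genes, PDE7A, the cell line markers and, of each list, the 2 members with the highest mean normalized count and up to 4 called members with the largest log2 fold changes and a mean of at least 20. The limma p-values set each group difference against the spread between these samples, which the fit draws toward a trend over all genes. Gene positions are those of GENCODE on hg38, and promoter windows those of RefSeq on GRCh38.p14. CCN2 was matched as CTGF, 9 list genes were not analysed here, HES5 did not pass the filter, and 1 item is not reported here.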

Additional observations from a re-analysis of the deposited data

How the results depend on the processing

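Over 17 alternatives, the 10 genes gave 170 comparisons with the reported log2 fold changes, of which 150 had the same direction and side of the threshold, 15 lost a call, 5 gained one and 0 changed direction. HES1, BAMBI, ID3, SKIL and SMAD6 had the same result under each. The 10 genes called lower numbered 4 to 6 when a library was left out (4 without BRL-50481 replicate 2 or 3, 5 without DMSO replicate 1), and 7 after the correction for length and GC content, under which the number called higher went from 0 to 1. That correction also raised the number called lower over all genes, from 4546 to 5493, while the number called higher went from 4400 to 4197. Over all genes, leaving out a library gave 3751 to 4876 higher and 4027 to 4933 lower. Of 46 pathway genes named by rule, 38 had the same result throughout, as did 3 of the 5 Notch pathway genes named after their values were seen. BMP4 and BMP2 were not compared in this way. The direction reversed in GDF15 (leave-one-out values from −0.18 to 0.014, the latter without DMSO replicate 3, and 0.033 with the length and GC correction), in SMAD5 (−0.041 without DMSO replicate 2, −0.023 without BRL-50481 replicate 1, up to 0.11 without DMSO replicate 1, and −0.15 with the length and GC correction) and in TGFBR1 (−0.098 to 0.027 over the libraries left out, the latter without DMSO replicate 1), and the cause was not tested. As a replicate block, the replicate number gave 6 of the 10 genes lower, 0 higher, 4440 genes higher and 4589 lower in all, and among these named genes ended the call of TCF4 alone. Whether same-numbered libraries belong together is not settled. Their deviations correlated weakly, at 0.121, 0.104 and 0.0510. Each DMSO library correlated best with the BRL-50481 library of its own number. BRL-50481 replicate 3, however, correlated slightly better with DMSO replicate 2 (0.061). Depth limits ID2, SMAD6 and HEY1 most, which rest on about 30 to 130 reads a library.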
